A study of Mus musculus with 6 samples.

Results

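*Cntn1*, *Cnmd*, *Rfwd3*, *Gm14308* and *Olfr1388* are 5 of the 25690 gene symbols in transcript tables of mouse CD27SP NK cells. They were chosen because their values were much lower in cells of *Ncr1cre Myc* fl/fl mice than in cells of *Ncr1cre Myc* wt/wt mice, and no numerical limit was part of the choice. All 5 passed the filter on low counts, which kept 15474 genes. The difference between the genotypes chose them, so their levels, fold changes and calls are a description here and carry no test.

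The 5 genes have no known function in common. *Cntn1* encodes contactin-1, a GPI-anchored adhesion protein of the immunoglobulin superfamily that is known from axons and the paranodal junctions of myelinated nerve. *Cnmd* encodes chondromodulin, a cartilage glycoprotein with a BRICHOS domain that inhibits vessel growth, and *Olfr1388* belongs to the odorant receptors, G protein-coupled receptors of the olfactory epithelium. *Rfwd3* encodes a RING-type E3 ubiquitin ligase with WD40 repeats that acts on RPA in the Fanconi anaemia pathway of DNA crosslink repair. *Gm14308* is a predicted gene in a cluster of closely similar Krüppel-associated box zinc finger genes.

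RNA was sequenced from CD27SP NK cells, an early stage of NK cell maturation gated as NK1.1+CD27+CD11b- and negative for CD3, sorted from the BM. The controls are *Ncr1cre Myc* wt/wt, and the compared genotype is *Ncr1cre Myc* fl/fl. Both carry Cre in the *Ncr1* locus, and in the latter the floxed *Myc* alleles are deleted once a cell expresses NKp46. CD27SP cells have only begun to express Cre, so undeleted cells can remain in the sort. Each genotype has 3 libraries, numbered 1, 2 and 4, and nothing in the sources used here ties a library to a single mouse, so the spread given is that between libraries. In bulk samples, fewer cells of a type and less RNA per cell cannot be told apart.

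*Wt/wt* library 1 stood apart in depth, with 8101219 estimated counts against 54550907 to 64962491 in the other 5 libraries. *Myc* was at 201, 183 and 164 CPM (counts scaled to a common library size) in *wt/wt* libraries 1, 2 and 4, against 61.5, 64.6 and 76.5 CPM for *fl/fl*. NK cell markers summed to 14290 to 14910 CPM in *wt/wt* and to 16330 to 17140 in *fl/fl*. Summed markers of several other cell types were higher in every *fl/fl* library than in every *wt/wt* library. Basophil and mast cell markers summed to 32.2 to 37.2 CPM in *wt/wt* and 125 to 340 in *fl/fl*, neutrophil and myeloid progenitor markers to 85.5 to 141 and 538 to 898, and erythroid markers to 47.1 to 286 and 572 to 1191. Of the tested markers, 8 of 10, 4 of 10 and 3 of 9 were called higher in these lists and 1, 0 and 0 lower, against 1.28% and 0.872% of all genes tested. The marker called lower was *Cma1*, a mast cell chymase, at 17.3, 18.6 and 14.3 CPM in *wt/wt* and 5.26, 5.65 and 3.38 CPM in *fl/fl*. The part of these cells in the values below was not tested.

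Each estimated count is assigned to an annotated transcript, and sequence shared between transcripts leaves that assignment uncertain. The *Cntn1* counts were assigned almost entirely to a transcript annotated with a retained intron, and the counted *Gm14308* transcript is held nearly base for base by another gene. The annotated sequences behind these assignments are printed first. For *Cntn1*, the stretch joins exon 9 of the gene, in lower case, to the intron sequence that follows it in the transcript Cntn1-203, in capitals. It lies at chr15:92246083-92246202 on the plus strand of GRCm38, with 60 bases on each side of the boundary.
Cntn1-203: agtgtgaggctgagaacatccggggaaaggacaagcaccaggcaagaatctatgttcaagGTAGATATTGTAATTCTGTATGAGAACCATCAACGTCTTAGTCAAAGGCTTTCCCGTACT
For *Gm14308*, the first 60 coding bases of the transcript Gm14308-203 are shown, with the start codon in capitals. The same 60 bases are found in transcripts of 8 other genes in the tables.
Gm14308-203: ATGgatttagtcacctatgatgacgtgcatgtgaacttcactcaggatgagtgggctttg

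*Cntn1* lay at 11.2, 7.71 and 7.89 CPM in *wt/wt* libraries 1, 2 and 4 and at 0.511, 0.915 and 0.419 CPM in *fl/fl* libraries 1, 2 and 4. The lowest *wt/wt* library was well above the highest *fl/fl* library. The estimated counts behind these levels were 86, 435 and 517 in *wt/wt* and 30, 50 and 25 in *fl/fl*. The shallow first *wt/wt* library thus held more *Cntn1* counts than any of the deeper *fl/fl* libraries.

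The mean *Cntn1* level was 8.93 ± 1.95 CPM (SD, n = 3) in *wt/wt* and 0.615 ± 0.264 CPM (SD, n = 3) in *fl/fl*, so that 6.89% of the *wt/wt* mean was left. On the TPM scale, which takes account of transcript length, the means were 2.45 ± 0.447 and 0.176 ± 0.0685, leaving 7.19%. The fold change fitted over all genes was −3.89 on the log2 scale, the fifth largest fall among the genes tested. *Cntn1* was already a low gene in *wt/wt* cells, where its mean TPM lay at percentile 34.9 of the tested genes, and it lay at percentile 7.04 in *fl/fl* cells.

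Nearly all *Cntn1* counts were assigned to Cntn1-203, a transcript annotated as retained intron and not as protein coding. Its estimated counts were 85.5, 431 and 517 in *wt/wt* and 29.9, 41.0 and 25.2 in *fl/fl*. The 3 protein coding transcripts of 24 exons together held 0.0, 4.0 and 0.0 counts in *wt/wt* and 0.0, 9.1 and 0.0 in *fl/fl*. Counts for the coding transcripts were therefore at or near 0 in both genotypes, and Cntn1-203 carried 100.4% of the fall in mean CPM, a share above 100% because the coding transcripts were slightly higher in *fl/fl*.

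Cntn1-203 spans chr15:92051165-92249451 with 9 exons and 4524 bases. The last 3309 bases, chr15:92246143-92249451, belong to no other *Cntn1* transcript and lie in the intron after exon 9. No other annotated gene overlaps *Cntn1* on either strand, and 95.2% of the 31-base stretches of Cntn1-203 occur in no other gene of the tables. The tables give no reads per base, so whether the counts fell on the shared exons or on the retained intron was not tested.

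*Cnmd* lay at 3.25, 1.61 and 1.44 CPM in *wt/wt* libraries 1, 2 and 4 and at 0.306, 0.476 and 0.268 CPM in *fl/fl*. The groups did not overlap, and *wt/wt* library 1 was the highest. Only 25, 91 and 94 estimated counts in *wt/wt* and 18, 26 and 16 in *fl/fl* stood behind these levels. The mean was 2.10 ± 0.999 CPM (SD, n = 3) in *wt/wt* and 0.350 ± 0.110 CPM (SD, n = 3) in *fl/fl*, which left 16.7%, and the fitted log2 fold change was −2.49. Without *wt/wt* library 1, the library that held only 25 counts, the fitted value without the block was −2.13.

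The fall of *Cnmd* was spread over several transcripts. The 2 protein coding transcripts together read 2.11, 0.408 and 1.08 CPM in *wt/wt* and 0.231, 0.408 and 0.179 CPM in *fl/fl*. In these coding transcripts *wt/wt* library 2 was level with *fl/fl* library 2, so the groups overlapped. The 3 shorter transcripts, Cnmd-202 and Cnmd-204 with retained introns and the processed transcript Cnmd-205, together read 1.14, 1.21 and 0.353 CPM in *wt/wt* and 0.0749, 0.0677 and 0.0888 CPM in *fl/fl*. These did not overlap between genotypes. The coding transcripts carried 53.0% of the fall in mean CPM and the shorter ones 47.0%.

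Per length the *Cnmd* difference was larger, with TPM values of 6.32, 5.80 and 2.73 in *wt/wt* and 0.546, 0.630 and 0.448 in *fl/fl*. On this scale 10.9% of the *wt/wt* mean was left. *Cnmd* spans chr14:79637690-79662170 on the minus strand.

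*Rfwd3* lay at 119, 105 and 115 CPM in *wt/wt* libraries 1, 2 and 4 and at 58.9, 13.0 and 19.6 CPM in *fl/fl* libraries 1, 2 and 4. The *wt/wt* libraries lay close together, whereas *fl/fl* library 1 kept a level several times that of the other *fl/fl* libraries. The groups did not overlap. Counts were ample, with 914, 5942 and 7507 in *wt/wt* and 3463, 713 and 1168 in *fl/fl*, and *fl/fl* library 1 alone held more counts than the other *fl/fl* libraries together.

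The mean *Rfwd3* level was 112.9 ± 6.88 CPM (SD, n = 3) in *wt/wt* and 30.5 ± 24.8 CPM (SD, n = 3) in *fl/fl*. Per length it was the highest of the 5 genes, with TPM values of 33.0, 32.2 and 33.3 in *wt/wt* and 18.6, 4.01 and 6.09 in *fl/fl*. Taken by replicate number, 49.6%, 12.4% and 17.1% of the *wt/wt* level was left in libraries 1, 2 and 4. The fitted log2 fold change was −2.20 with the replicate block, and −1.89 without it. Leaving out *fl/fl* library 1, 2 or 4 as well gave −2.79, −1.52 and −1.64. *Myc* read 61.5, 64.6 and 76.5 CPM in *fl/fl* libraries 1, 2 and 4. Why *Rfwd3* was higher in *fl/fl* library 1 was not tested.

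The protein coding transcript Rfwd3-201, of 13 exons and 4443 bases, carried 99.3% of the fall. It read 117, 103 and 113 CPM in *wt/wt* and 57.1, 11.6 and 17.7 CPM in *fl/fl*. The retained intron transcript Rfwd3-202 read 2.27, 2.54 and 2.06 CPM in *wt/wt* and 1.79, 1.43 and 1.88 CPM in *fl/fl*. The latter also did not overlap between genotypes, but 74.3% of its *wt/wt* mean was left, against 26.0% for Rfwd3-201. Its share of the gene's counts was therefore 1.91%, 2.41% and 1.80% in *wt/wt* and 3.04%, 11.0% and 9.62% in *fl/fl*.

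*Rfwd3* lies at chr8:111270944-111300222 on the minus strand. Of the 31-base stretches of Rfwd3-201, 41.8% also occur in *Gm5903*, a processed pseudogene on chr7 whose transcripts are not among those of the tables. The values of *Rfwd3* may hold reads of that copy, and their number was not tested.

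*Gm14308* lay at 14.9, 1.47 and 10.1 CPM in *wt/wt* libraries 1, 2 and 4 and at 2.38, 0.274 and 1.44 CPM in *fl/fl* libraries 1, 2 and 4. The groups overlapped, since *wt/wt* library 2 was below *fl/fl* library 1. Library 2 was the lowest in both genotypes, and within each replicate number the log2 difference was even, at −2.65, −2.42 and −2.81. The means were 8.84 ± 6.83 CPM and 1.37 ± 1.06 CPM (SD, n = 3 each), the fitted log2 fold change was −2.65, and the estimated counts were 115, 83 and 663 in *wt/wt* and 140, 15 and 86 in *fl/fl*.

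The fall of *Gm14308* was carried by Gm14308-203, which read 13.7, 1.19 and 9.99 CPM in *wt/wt*. In *fl/fl* it read 1.71 CPM in library 1 and had 0.0 estimated counts in libraries 2 and 4. This transcript of 4 exons and 1458 bases has 192 coding bases and lacks the last exon of Gm14308-201, the longest of the gene's transcripts, which itself had 0.0 counts in all 6 libraries. Gm14308-202 read 1.33 and 0.191 CPM in *wt/wt* libraries 1 and 2 and 0.0877 and 1.14 CPM in *fl/fl* libraries 2 and 4, and had 0.0 estimated counts in the other two libraries. Its highest level was in *wt/wt* library 1, close to that of *fl/fl* library 4, and the groups overlapped. Gm14308-204, a processed transcript of 685 bases, was opposite in direction, at 0.0, 0.0883 and 0.127 CPM in *wt/wt* and 0.673, 0.179 and 0.301 CPM in *fl/fl*.

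Per length less of the difference was seen, since 15.4% of the *wt/wt* mean was left in CPM and 28.9% in TPM. *Gm14308* spans chr2:176613364-176636344 on the minus strand. Reads cannot be placed on it with certainty. None of the 31-base stretches of Gm14308-201, Gm14308-202 or Gm14308-203 is particular to the gene, whereas 43 of the 655 stretches of Gm14308-204 (6.56%) are found in no other gene. Gm14434-202, a transcript of the neighbouring *Gm14434*, has the same 1458 bases as Gm14308-203 except for G564C and G565A, counted from the 5′ end of Gm14308-203. The values of these transcripts mirrored each other. Gm14434-202 had 0.0 estimated counts in *wt/wt* library 1, where Gm14308-203 was highest, then 5.85 and 4.19 CPM in *wt/wt* libraries 2 and 4, and 9.37, 8.73 and 11.9 CPM in *fl/fl*.

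Summed, Gm14308-203 and Gm14434-202 read 13.7, 7.04 and 14.2 CPM in *wt/wt* and 11.1, 8.73 and 11.9 CPM in *fl/fl*. The groups overlapped, and the means of 11.6 ± 3.99 and 10.6 ± 1.66 CPM (SD, n = 3 each) gave a log2 ratio of −0.14. Over *Gm14308* and the 10 genes that hold at least 50% of the stretches of one of its counted transcripts, the sum was 69.9, 65.9 and 75.7 CPM in *wt/wt* and 69.4, 85.4 and 75.5 CPM in *fl/fl*. That sum was 70.5 ± 4.93 CPM in *wt/wt* and 76.8 ± 8.04 CPM in *fl/fl* (SD, n = 3 each), with a log2 ratio of 0.12. The groups overlapped in that sum as well.

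**Figure D1:**
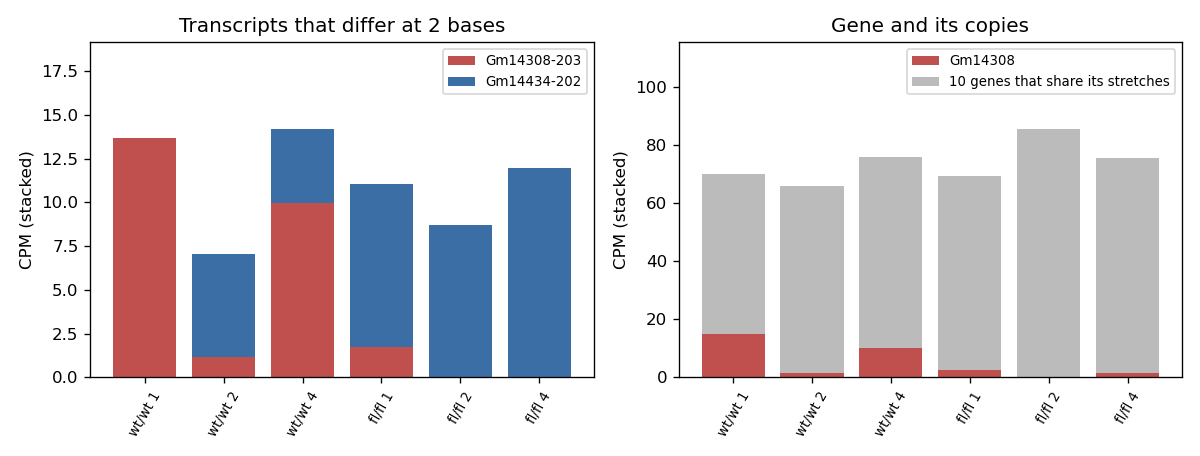
CPM (stacked, y axis) in each of the 6 libraries (x axis, genotype and replicate number) for Gm14308-203 and Gm14434-202 on the left, and for *Gm14308* and the 10 genes that share its 31-base stretches on the right. The red part on the left was at 1.71 CPM or less in *fl/fl* libraries while the height of the stacked bars overlapped between the genotypes, at 7.04 to 14.2 CPM in *wt/wt* and 8.73 to 11.9 CPM in *fl/fl* on the left.

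*Olfr1388* lay at 7.93, 2.78 and 4.15 CPM in *wt/wt* libraries 1, 2 and 4 and at 1.40, 0.512 and 1.39 CPM in *fl/fl*. The groups did not overlap, and library 2 was again the lowest in each genotype. The means were 4.95 ± 2.66 CPM in *wt/wt* and 1.10 ± 0.508 CPM in *fl/fl* (SD, n = 3 each), which left 22.2%. The fitted log2 fold change was −2.16, and −1.67 without the block and without *wt/wt* library 1. The estimated counts were 61, 157 and 272 in *wt/wt* and 82, 28 and 83 in *fl/fl*.

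All *Olfr1388* counts were assigned to Olfr1388-202, a transcript of 4 exons and 3034 bases at chr11:49436624-49446103 on the plus strand. Olfr1388-201, the single exon of 936 bases that holds the receptor's reading frame and lies within the last exon of Olfr1388-202, had 0.0 counts in every library. In Olfr1388-202, 72.2% of the 31-base stretches occur in no other gene of the tables, and 16.3% are shared with *Gm43041*. *Gm43041* read 16.8, 13.9 and 12.2 CPM in *wt/wt* and 7.90, 6.53 and 6.55 CPM in *fl/fl*, with a fitted log2 fold change of −1.02. *D10Wsu102e* and *Wiz*, which share 9.99% and 6.59% of the stretches, had fitted values of −0.26 and −0.04.

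**Figure D2:**
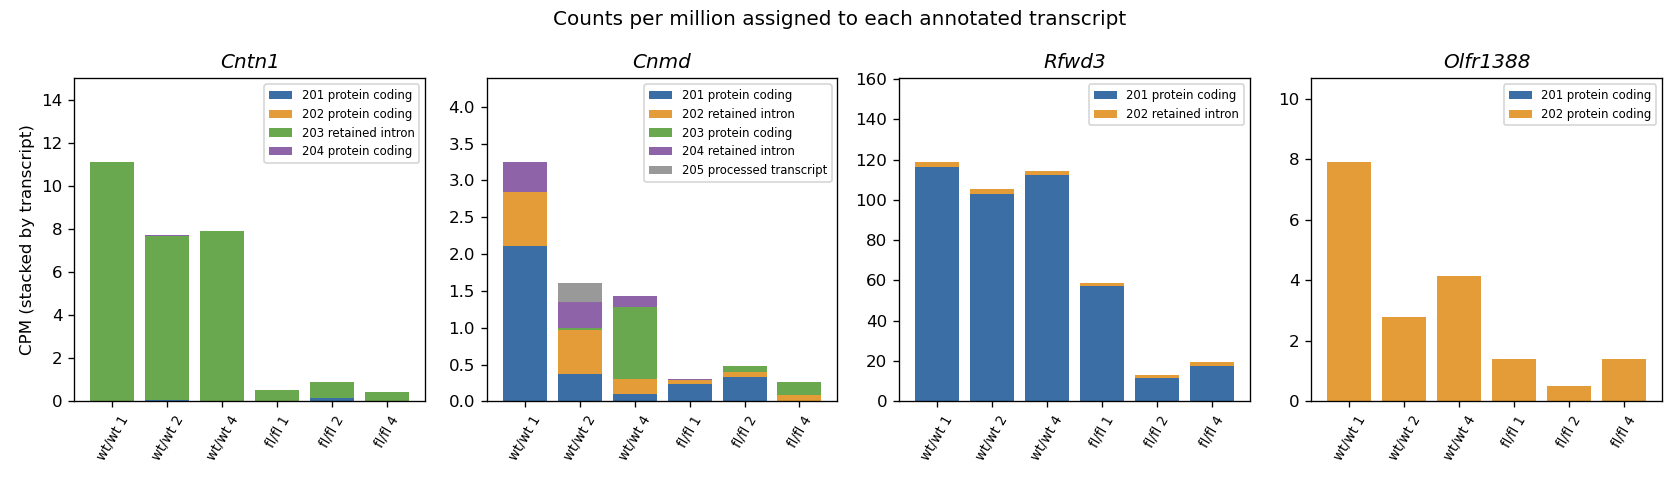
CPM (stacked, y axis) of each annotated transcript of *Cntn1*, *Cnmd*, *Rfwd3* and *Olfr1388* in the 6 libraries (x axis, genotype and replicate number), with colours for transcripts and their annotated type. *Cntn1* counts sit on the retained intron transcript 203, *Rfwd3* counts on the coding transcript 201 and *Olfr1388* counts on transcript 202, while *Cnmd* counts are spread over transcripts that differ between libraries.

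Among the tested genes, the mean TPM in *wt/wt* lay at percentile 41.5 for *Cnmd*, 70.3 for *Rfwd3*, 46.4 for *Gm14308* and 33.3 for *Olfr1388*. In *fl/fl* these percentiles were 18.4, 48.0, 31.8 and 17.6. *Rfwd3* thus reached the middle of the range, and *Cntn1* ended lowest of the 5.

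Set side by side, the genes differed in how evenly the difference held by replicate number. The log2 difference within a number had an SD of 0.196 for *Gm14308*, 0.518 for *Olfr1388*, 0.740 for *Cntn1*, 0.828 for *Cnmd* and 1.05 for *Rfwd3*. The most even gene was thus the one whose genotypes overlapped, and the least even was the one with the tightest *wt/wt* libraries. This order depends on matching libraries by number, and such pairing is not shown. *Cntn1* differed by −4.45, −3.08 and −4.24 in numbers 1, 2 and 4, *Cnmd* by −3.41, −1.76 and −2.42, *Rfwd3* by −1.01, −3.01 and −2.55, and *Olfr1388* by −2.51, −2.44 and −1.58. All 15 differences were below 0, a direction that the choice of the genes favours. Replicate 2 had the smallest fall in *Cntn1* and *Cnmd* and the largest in *Rfwd3*, so no single number carried all 5. Without the shallow *wt/wt* library 1 and without the block, the fitted value was −3.68 for *Cntn1*, −1.86 for *Rfwd3* and −2.09 for *Gm14308*.

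**Figure D3:**
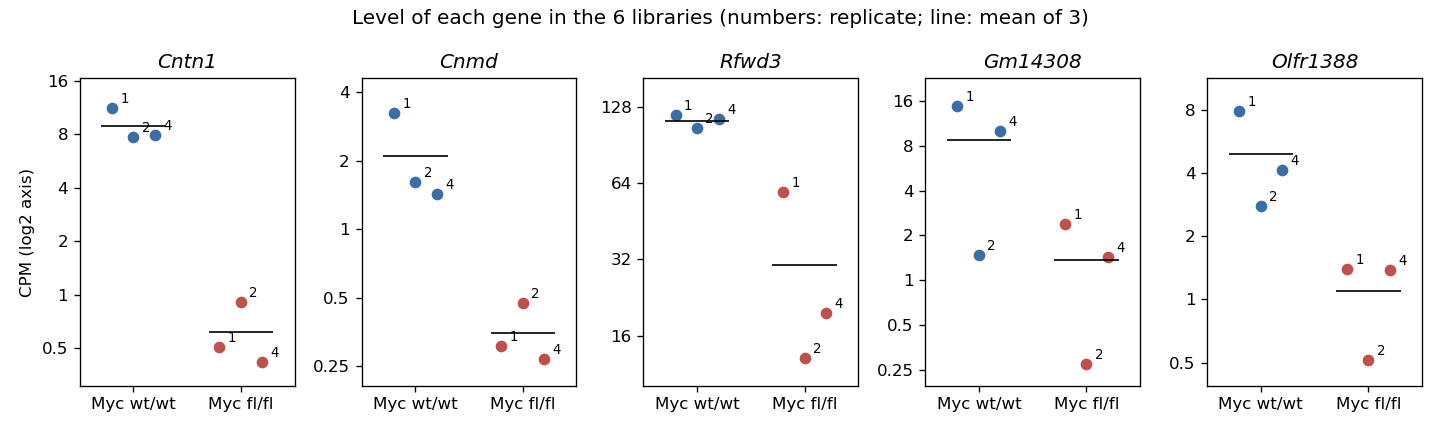
Level of each gene in CPM (log2 y axis) by genotype (x axis), with 1 point per library, its replicate number beside it and a line at the mean of the 3 libraries. The genotypes separate in every panel except that of *Gm14308*, where *wt/wt* library 2 at 1.47 CPM lies below *fl/fl* library 1 at 2.38 CPM.

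Genes were called lower at an adjusted p below 0.01 and a log2 fold change of at most −0.5 in edgeR's quasi-likelihood test with the replicate number as a block. *Cntn1*, *Rfwd3*, *Gm14308* and *Olfr1388*, 4 of the 5 genes, were called, against 0.872% of all genes tested, and *Cnmd* was not. In 4 of the 5 genes every *fl/fl* library was below every *wt/wt* library, against 15.1% of all genes tested. Without the block, 1 of the 5 (*Cntn1*) was called lower, against 1.19% of all genes. The genes were chosen on this contrast, so nothing is read from these counts. Only 0.258% of the tested genes had a log2 fold change of −2 or lower, and all 5 genes are among them.

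**Figure D4:**
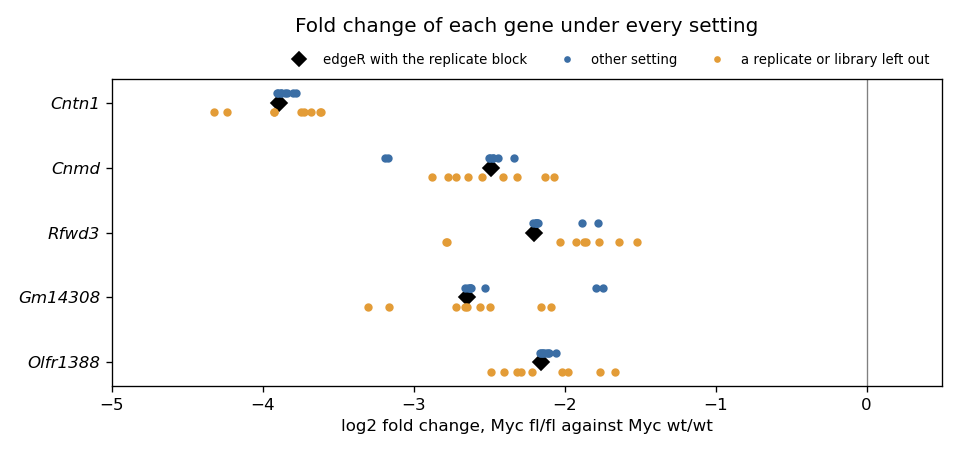
Fitted log2 fold change of *fl/fl* against *wt/wt* (x axis) for each gene (y axis) in edgeR with the replicate block (diamonds), under other settings (blue points) and with a replicate or library left out (orange points). All values lie below 0, from −4.33 to −3.62 for *Cntn1* and from −3.31 to −1.74 for *Gm14308*, which had the widest range.

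The genes whose profiles over the 6 libraries were most like each of the 5 were found by the root mean square difference of log2(CPM + 0.1), centred on each gene's mean. The profiles hold the contrast that chose the genes, so these are descriptions. Closest to *Cntn1* was *Cnmd* at 0.766, followed by *Smoc2* at 0.855 and *Ret* at 0.881. *Ret*, a receptor tyrosine kinase, was also close to *Cnmd* at 0.251, beside *C1ql1* at 0.228 and *Mcam* at 0.334, and read 11.7, 9.52 and 6.69 CPM in *wt/wt* and 2.37, 2.67 and 1.68 CPM in *fl/fl*. Closest to *Rfwd3* were *Naip2* at 0.473, *Tgfa* at 0.495 and *Bfsp1* at 0.527. *Naip2*, an inflammasome sensor, read 26.2, 18.0 and 23.9 CPM in *wt/wt* and 10.7, 5.98 and 4.04 CPM in *fl/fl*.

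*Olfr1388* was the gene closest to *Gm14308*, at 0.808, ahead of *Hist1h2af* at 0.917 and *Rdh16f1* at 0.929. *U2af1*, a splicing factor that recognises the end of introns, was the closest to *Olfr1388* at 0.289, ahead of *Slc16a4* at 0.344 and *Gtsf1* at 0.409. *U2af1* read 174, 78.1 and 86.5 CPM in *wt/wt* and 43.0, 21.2 and 49.8 CPM in *fl/fl*, so that its first *wt/wt* library and its second *fl/fl* library stood out in the same direction as those of *Olfr1388*.

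The promoters of the genes were read from the RefSeq table for GRCm38.p6, in which all 5 were found. Each window runs from 250 bases before to 50 bases after a gene start. The window at the start of Cntn1-203 and that of *Rfwd3* are shown, since these are the genes with the steepest fall and with the most counts. The former is chr15:92050915-92051214 on the plus strand and the latter chr8:111300173-111300472 on the minus strand, and capitals mark each CANNTG, the general E-box.
Cntn1 promoter: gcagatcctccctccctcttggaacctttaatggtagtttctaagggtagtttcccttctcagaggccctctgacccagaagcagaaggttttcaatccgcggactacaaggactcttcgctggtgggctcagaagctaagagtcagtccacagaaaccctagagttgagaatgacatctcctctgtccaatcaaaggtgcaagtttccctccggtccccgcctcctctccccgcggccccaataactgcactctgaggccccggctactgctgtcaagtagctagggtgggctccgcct
Rfwd3 promoter: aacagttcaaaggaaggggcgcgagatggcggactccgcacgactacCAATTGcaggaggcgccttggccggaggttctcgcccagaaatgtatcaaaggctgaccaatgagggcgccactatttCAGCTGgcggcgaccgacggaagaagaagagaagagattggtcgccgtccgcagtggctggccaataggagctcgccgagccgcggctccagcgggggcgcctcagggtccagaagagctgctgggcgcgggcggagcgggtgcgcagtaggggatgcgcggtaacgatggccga
CACGTG, the E-box to which Myc binds with its partner Max, was searched on both strands and occurs in no window of the 5 genes, against 7.15% of the 32851 promoters of the table. CANNTG, which includes it, occurs in 72.3% of all promoters and was found 2 times in the *Rfwd3* window, 4 times in that of *Gm14308*, 1 time in that of *Cnmd* and 0 times in the *Cntn1* window shown and in that of *Olfr1388*. CCAAT, searched on both strands and in part overlapping a CANNTG, occurs in 37.4% of all promoters and was found 4 times in the *Rfwd3* window, 2 times each in the *Cntn1* window shown and that of *Gm14308*, and 0 times in those of *Cnmd* and *Olfr1388*. A match or its absence describes these letters in these windows only. The *Olfr1388* window begins upstream of the single-exon transcript and not of the counted Olfr1388-202.

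Genes that act with the proteins were taken from lists. Of 22 contactins and partners of contactin-1, 14 were tested. In edgeR with the block, 0 were called lower and 0 higher, with 0 lower and 5 higher at an unadjusted p below 0.05 (10.2% and 12.4% of all genes), and DESeq2 called 1 higher, where it called 4.16% of all genes higher. Their median log2 fold change was 0.47, against 0.01 over all genes tested. *L1cam*, a neural adhesion molecule of the same superfamily, had the smallest p in the list, with 8.77 ± 3.43 CPM in *wt/wt* and 24.6 ± 4.67 CPM in *fl/fl* (SD, n = 3 each), and the fitted log2 value was 1.52 (edgeR, adjusted p = 0.0145). Its fitted value was thus opposite in sign to that of *Cntn1* and missed the limit of 0.01. *Tnc*, which encodes the matrix ligand tenascin-C, had a log2 fold change of 2.65 (edgeR, adjusted p = 0.0952), at a mean of 0.589 CPM or lower in both genotypes.

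Of 9 genes with a BRICHOS domain related to *Cnmd*, 3 were tested. edgeR and DESeq2 called 0 in either direction, 0 were lower and 1 higher at an unadjusted p below 0.05 (10.2% and 12.4% of all genes), and the median log2 fold change was 0.07. The smallest p belonged to *Itm2c*, an integral membrane protein, with a log2 fold change of 0.55 (edgeR, adjusted p = 0.162). *Itm2b*, its relative, had a log2 fold change of 0.07 (edgeR, adjusted p = 0.853).

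Around *Rfwd3*, 44 of 45 genes of RPA, ATR signalling and the Fanconi anaemia pathway were tested. In edgeR 0 were called in either direction, 17 were lower and 0 higher at an unadjusted p below 0.05 (10.2% and 12.4% of all genes), and DESeq2 called 5 lower, where it called 3.47% of all genes lower. Their median log2 fold change was −0.28, with 32 of 44 below 0. In 17 of the 44 every *fl/fl* library was below every *wt/wt* library and in 2 above, against 15.1% and 16.2% of all genes tested. *Brip1*, a helicase of this pathway, read 38.7 ± 9.12 and 21.5 ± 3.18 CPM (SD, n = 3 each), with a fitted value of −0.83 (edgeR, adjusted p = 0.0188). Its difference was smaller than that of *Rfwd3*.

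The genes beside the 5 were compared as well. Of 98 tested genes within 1 Mb of one of them, 1 was called lower and 0 higher in edgeR (0.872% and 1.28% of all genes). At an unadjusted p below 0.05, 5 were lower and 11 higher (10.2% and 12.4% of all genes), and DESeq2 called 1 lower and 4 higher (3.47% and 4.16% of all genes), so that the shares were near or under those of all genes. Their median log2 fold change was 0.05. The called gene was *Rack1*, a scaffold protein of the small ribosomal subunit that lies 630 kb from *Olfr1388*. It read 402 ± 28.2 CPM in *wt/wt* and 194 ± 11.5 CPM in *fl/fl* (SD, n = 3 each), and the fitted log2 value was −1.05 (edgeR, adjusted p = 0.00314). Within 0.5 Mb, 0 of 59 genes were called in edgeR, with 1 lower and 6 higher at an unadjusted p below 0.05.

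Beside *Cntn1*, the 4 tested genes within 1 Mb had fitted values above 0, namely *Abcd2* at 2.24, *Lrrk2* at 2.15, *Gxylt1* at 0.39 and *Yaf2* at 0.30 on the log2 scale, and 0 were called in edgeR. DESeq2 called 1 of them, *Abcd2*, higher, where it called 4.16% of all genes higher. *Abcd2*, a peroxisomal transporter, had the smallest p of these, with 0.405 ± 0.223 CPM in *wt/wt*, 1.64 ± 0.161 CPM in *fl/fl* (SD, n = 3 each) and an adjusted p of 0.0225 in edgeR. *Myc* and *Cntn1* are both on chr15, 30.1 Mb apart. Beside *Cnmd*, 7 of 10 tested genes had fitted values below 0, with a median of −0.09, where 7512 of all 15474 genes were below 0 and the median was 0.01. In DESeq2, *Kbtbd7* and *Rgcc* were called higher (2 of the 10, against 4.16% of all genes). The smallest p of the 10 belonged to *Rgcc*, a regulator of cell cycle, which had a log2 fold change of 1.76 (edgeR, adjusted p = 0.0140), opposite in sign to *Cnmd*. The neighbours of *Rfwd3*, of which 26 were tested, had a median log2 fold change of −0.01, and *Kars*, a lysyl-tRNA synthetase, had the smallest p with −0.39 and an adjusted p of 0.111 in edgeR.

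The near relatives of *Gm14308* and *Olfr1388* had medians close to 0. Of 19 tested Gm14 genes within 5 Mb of *Gm14308*, edgeR and DESeq2 called 0, 0 were lower and 1 higher at an unadjusted p below 0.05, and the median log2 fold change was −0.05. *Gm14434*, the gene with the near-identical transcript, had a log2 fold change of 1.74 (edgeR, adjusted p = 0.140). Of 296 tested *Olfr* genes, edgeR called 0 and DESeq2 called 1 lower (0.872% and 3.47% of all genes). At an unadjusted p below 0.05, 5 were lower and 3 higher, against 10.2% and 12.4% of all genes. Their median log2 fold change was −0.13, with 179 below 0. *Olfr1160* had the smallest p of these, at 1.99 ± 0.792 CPM in *wt/wt* and 0.388 ± 0.147 CPM in *fl/fl* (SD, n = 3 each), and the fitted log2 value was −2.33 (edgeR, adjusted p = 0.0202). *Olfr523* had the next smallest p and was opposite in sign, with a fitted value of 2.44 (edgeR, adjusted p = 0.0654).

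Tissues in which *Cntn1* and *Cnmd* are best known left little trace in these libraries. Of 11 neuron and glia markers, *Snap25*, *Syt1*, *Map2*, *Tubb3*, *Nefl*, *Gap43* and *Sox10* had at most 3 counts in every library. The summed neuron and glia level of 115 to 133 CPM in *wt/wt* and 101 to 171 CPM in *fl/fl* was almost all *Mbp*, which lymphocytes also express. The 10 cartilage markers summed to 0.780 to 1.83 CPM in *wt/wt* and 0.885 to 1.28 CPM in *fl/fl*, with *Acan*, *Col9a1* and *Snorc* at 3 counts or fewer in every library. The 8 markers of marrow stroma summed to 13.2 to 27.3 CPM in *fl/fl* and 2.47 to 5.67 CPM in *wt/wt*. Of these, 0 were called lower and 0 higher (0.872% and 1.28% of all genes). *Cxcl12* was the highest of them, at 0.909, 3.03 and 2.41 CPM in *wt/wt* and 14.7, 18.5 and 4.3 CPM in *fl/fl*. *Pdgfra* and *Kitl* overlapped between genotypes. The cells from which the *Cntn1* and *Cnmd* transcripts came were not tested.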

How the data were processed

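The tables of 6 libraries of CD27SP NK cells were used, 3 of *Ncr1cre Myc* wt/wt and 3 of *Ncr1cre Myc* fl/fl, prepared with SMART-Seq, a kit that does not keep strand, and sequenced single end. The authors deposited, for each of 100583 mouse transcripts, an estimated count that is not normalized, a TPM value and an effective length. The methods and the submitters' processing notes name Salmon and GRCh38, whereas the deposited columns are those of kallisto and the identifiers are mouse. Total estimated counts ran from 8101219 to 64962491.

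Transcripts were matched to GENCODE M21 (GRCm38), in which 100239 were found, and estimated counts were summed by symbol and rounded to whole numbers. In R 4.3.3, genes passing edgeR's filterByExpr were normalized by TMM and fitted by edgeR 4.0.16 (quasi-likelihood test), the replicate number being a block term since the study describes paired analyses. Calls required a Benjamini-Hochberg adjusted p below 0.01 over all 15474 genes tested and a log2 fold change of at least 0.5 in size. CPM is TMM-normalized. Deviations of same-numbered libraries correlated at −0.01, −0.07 and 0.08 for replicates 1, 2 and 4, under the limit of 0.1, so pairing of mice by number is not shown. DESeq2 1.42.0, limma-trend (3.58.1), no block, other filters and scalings, effective length offsets, TPM and leaving out replicates were the alternatives. Single-library leave-outs and the sum over copies of *Gm14308* were added after seeing the data. The fit was tested on simulated data.

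Shared sequence was counted as 31-base stretches of the annotated transcripts. The genes and lists were chosen with earlier results of these data known. *Mbp*, *Cma1*, *Lck*, *Cd4*, *Cd8a*, *Cxcl12*, *Pdgfra*, *Kitl* and the genes sharing sequence were chosen after their values were seen. The other named genes were the 5 genes, *Myc* and the called genes. They also included the 2 with the smallest p in each list and the 3 nearest in profile to each of the 5 genes. The values of 1 gene named by this rule are not reported here. The marker lists of B and T cells summed to 4.55 to 8.64 and 1806 to 1918 CPM in *wt/wt* and 11.5 to 16.3 and 1573 to 1902 CPM in *fl/fl*. The T cell sum was mostly *Lck*, at 1421 to 1570 CPM in *wt/wt* and 1311 to 1580 CPM in *fl/fl*. *Cd4* and *Cd8a* lay at 2.24 CPM or lower in every library.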

Additional observations from a re-analysis of the deposited data

How the results depend on the processing

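Over 17 other settings for each of the 5 genes, all 85 log2 fold changes were below 0. Of these, 79 moved by less than the SD of the gene's log2 differences within replicate numbers. The other 6 were all of *Gm14308*, at −1.74 with offsets from effective lengths, at −1.79 as the ratio of mean TPM, and between −3.31 and −2.09 with *wt/wt* library 1 or 2 or *fl/fl* library 1 or 2 left out, fitted without the block. Leaving out a replicate number with the block kept gave −2.72 to −2.56 for *Gm14308*. Its SD within numbers was the smallest, at 0.196 against 0.518 to 1.05 for the other genes, and pairing by number is not shown. Its *wt/wt* libraries themselves were far apart, at 14.9, 1.47 and 10.1 CPM. Summed with its copies, the log2 ratio of *Gm14308* turned to 0.12. Without the replicate block, 1 of the 5 genes (*Cntn1*) was called lower against 1.19% of all genes, with library size only 2 (*Cntn1* and *Gm14308*) against 0.162%, with offsets 1 (*Cntn1*) against 0.0517%, and all 5 in DESeq2 against 3.47%, without a filter on low counts against 1.83% and with at least 10 counts in every library against 1.17%. *Cntn1* was called under every setting that gave a call, and the count without replicate 1 was 2 (*Cntn1* and *Rfwd3*) against 0.0636% of all genes and without replicate 2 also 2 (*Cntn1* and *Gm14308*) against 0.3%. The replicate block itself moved the number of genes called lower from 184 without it to 135 and that called higher from 203 to 198. Genes called lower numbered 537 in DESeq2, 378 without a filter on low counts, 25 with library size only, 8 with offsets, 523 at an adjusted p of 0.05 with any fold change, 10 to 114 with a replicate number left out and the block kept, and 6 to 130 with a single library left out and no block. Genes called higher numbered 643, 524, 49, 24, 689, 49 to 162 and 19 to 116 under the same settings. The cause was not tested. In the ranges that follow, single libraries were likewise left out without the block. Among contactins and partners, 1 was called higher in DESeq2, 1 without the filter and 1 at 0.05, and 0 to 1 with a replicate or library left out. Of the RPA, ATR and Fanconi anaemia genes, 1 was called lower without the replicate block, 5 in DESeq2, 3 without the filter, 5 at 0.05, and 0 to 1 with a replicate or library left out. Among neighbours, the 1 gene called lower became 0 with offsets and 0 within 0.5 Mb, and 0 to 1 with a replicate or library left out. For neighbours called higher the number was 4 in DESeq2, 4 without the filter, 4 at 0.05 and 0 to 1 with a replicate or library left out. Of the *Olfr* genes 1 was called lower in DESeq2, 1 without the filter and 1 at 0.05. Low counts limit the precision of *Cnmd* and *Gm14308*, with as few as 16 and 15 counts in a library.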
